A study of Mus musculus with 12 samples.

Results

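Complement is a chain of plasma proteins that marks and lyses foreign or damaged cells. It can be started by antibody through the C1 complex (the classical pathway), by sugar-binding lectins with their MASP proteases (the lectin pathway), or by spontaneous activation of C3 amplified by factor B (the alternative pathway), and all of these routes meet at the cleavage of C3. Fat cells secrete several of the proteins, and factor D, encoded by Cfd, was first known as adipsin for its abundance in adipocytes. Here 9 complement components and regulators were followed by gene symbol through RNA-seq of cultured adipocytes: C3, C4b, C2, C1ra, C1s, Cfb, Cfp, Serping1 and Masp1. They are 9 of the 27473 features of the deposited count table, and where a symbol stood on more than 1 feature, the feature with the highest mean count was taken.

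The cells were 3T3-L1, a clonal mouse fibroblast line that turns into fat-storing adipocytes in culture, here under dexamethasone, IBMX and insulin in every group. The study examined the role of Dnmt3a, a DNA methyltransferase that places methyl groups on CpG dinucleotides, in the insulin resistance of adipocytes. Its RNA-seq compared mature adipocytes with raised or lowered Dnmt3a to look for target genes. Cells received lentivirus on day 8 and were harvested for RNA 4 days later. The libraries form 4 groups of 3: Dnmt3a (a pCDH vector that expresses Dnmt3a) with its control GFP (pCDH with GFP), and shDnmt3a (a hairpin against Dnmt3a) with its control shScr (a scrambled hairpin). The labels give 2 days of contact with the virus, and the study's methods a shorter contact. The Dnmt3a hairpin used and the promoters of the constructs are not given there. The design text speaks of biological triplicates of 1 cell line without saying what was separate, so p-values measure the spread between these libraries. As all 9 genes were read in whole cultures, fewer cells of a type and less RNA per cell cannot be told apart.

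Total counts per library were 29084732 to 47341091, and libraries of a group differed by more than sampling noise (chi-square per degree of freedom 2.44 to 10.1). Levels are CPM, counts scaled to library size by TMM over the 12 libraries. Dnmt3a itself stood at 2734 to 2789 CPM in Dnmt3a cells against 90.2 to 96.7 CPM in GFP cells, and at 39.3 to 40.8 CPM in shDnmt3a cells against 78.7 to 86.5 CPM in shScr cells. Of 8 adipocyte markers, which include the complement gene Cfd, all but Lep were above 1 CPM. The summed level of the 8 was 17339 to 18072 CPM in Dnmt3a cells, against 13826 to 14695 CPM in GFP cells. It was 11996 to 12302 CPM in shDnmt3a cells, against 12764 to 13604 CPM in shScr cells. On knock-down Fabp4, Cfd and Adipoq were lower (log2 fold change −0.10, −0.26 and −0.22), but Plin1 and Pparg higher (0.11 and 0.15). Lipe, Slc2a4 and Lep did not pass the test described below. The 6 fibroblast or preadipocyte markers summed to 6012 to 6770 CPM in Dnmt3a cells, against 6012 to 6269 CPM in GFP cells. In shDnmt3a cells they summed to 12093 to 12165 CPM, against 7961 to 8512 CPM in shScr cells, mostly from Col3a1. The 6 did not move together on knock-down. Log2 fold changes were 0.61 for Col3a1, 0.41 for Col1a1 and 0.06 for Dlk1, but −1.35 for Ly6a, −0.48 for Thy1 and −0.14 for Pdgfra. On overexpression Col1a1 and Dlk1 were lower (−0.50 and −0.46) and Ly6a higher (0.39). Col3a1, Thy1 and Pdgfra did not pass the test there (0.07, 0.07 and −0.04). Of the 10 macrophage or leukocyte markers in the table, Emr1, C1qa, C1qb and C1qc were at 0 in every library and Ptprc and Csf1r under 1 CPM, with summed levels of 14.96 to 16.7 CPM in Dnmt3a cells, 13.1 to 13.5 CPM in GFP cells, 11.1 to 11.8 CPM in shDnmt3a cells and 10.1 to 11.0 CPM in shScr cells. Cd68 and Cd14 were the highest of the 10, with group means of 2.89 to 7.14 CPM and of 4.59 to 6.21 CPM. The log2 fold change of Cd68 was 0.55 on overexpression and −0.35 on knock-down, and that of Cd14 −0.02 and 0.44. The 4 endothelial markers summed to at most 2.07 CPM and the 4 hepatocyte markers to at most 0.166 CPM. The part of these shifts in the results on complement genes was not tested.

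On the genome (NCBIM37, the assembly known as mm9, with GENCODE vM1), the 9 protein-coding genes lie on 5 chromosomes. C4b (chr17:34865325-34880827), Cfb (chr17:34993319-34999463) and C2 (chr17:34999549-35035397), all on the minus strand, share 170.1 kb of the class III region of the major histocompatibility complex. C3 stands apart on the same chromosome (chr17:57343397-57367559, minus strand). C1ra (chr6:124462423-124473458, plus strand) and C1s (chr6:124480363-124586998, minus strand) are neighbours within 124.6 kb. Masp1 is at chr16:23449490-23520676, Serping1 at chr2:84605544-84615601 and Cfp at chrX:20502580-20508681, each on the minus strand. The exons of Cfb share 79.5%, and those of C2 40.8%, of their bases with Gm20547, an annotated gene on the same strand that runs through both, so reads of Cfb, C2 and that model cannot be fully separated. C4b and C1ra have close paralogs, C4a and C1rb, which may share reads with them. Sources used here do not give the strand setting of the counting, and 16.5% of the exon bases of C1s lie opposite another transcript. C1s also shares 5.87% of its exon bases with the annotated gene Gm5077 on the same strand.

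Because Dnmt3a acts on CpG, the promoter windows of C3, C1ra and C1s are shown with each CpG in capitals. They were taken from RefSeq (table built on GRCm38.p6), run from 250 bases before to 50 bases from the annotated start, and were matched exactly to NCBIM37, whose coordinates are given; RefSeq held a window for 4 of the 9 genes, its symbol for C1s is C1s1, and its start of that gene lies inside the GENCODE span.
C3 (chr17:57367510-57367809, minus strand): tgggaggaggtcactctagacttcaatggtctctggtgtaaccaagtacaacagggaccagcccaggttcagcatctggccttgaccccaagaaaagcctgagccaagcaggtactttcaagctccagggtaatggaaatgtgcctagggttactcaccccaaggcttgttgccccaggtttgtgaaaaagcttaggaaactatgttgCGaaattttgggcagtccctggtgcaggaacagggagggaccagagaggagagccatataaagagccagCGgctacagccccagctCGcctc
C1ra (chr6:124462389-124462688, plus strand): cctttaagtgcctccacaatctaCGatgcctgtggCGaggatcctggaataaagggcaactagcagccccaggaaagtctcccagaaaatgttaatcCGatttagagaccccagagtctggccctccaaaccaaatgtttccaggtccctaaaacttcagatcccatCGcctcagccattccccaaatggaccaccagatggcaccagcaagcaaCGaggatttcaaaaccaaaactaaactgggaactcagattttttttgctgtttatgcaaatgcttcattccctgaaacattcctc
C1s (chr6:124492328-124492627, minus strand): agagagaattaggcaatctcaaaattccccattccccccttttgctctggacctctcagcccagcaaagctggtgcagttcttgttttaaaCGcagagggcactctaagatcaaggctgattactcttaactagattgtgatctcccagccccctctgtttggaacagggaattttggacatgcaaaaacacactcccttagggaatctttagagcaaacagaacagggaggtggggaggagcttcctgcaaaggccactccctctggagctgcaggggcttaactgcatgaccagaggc
The window of C3 holds 3 CpG, that of C1ra 5 and that of C1s 1, and the window of Cfp, the other one found, 2. Over 32851 promoters of the same length the median was 7 CpG, and 23.3% of promoters had fewer than C3, 38% fewer than C1ra, 5.43% fewer than C1s and 14.1% fewer than Cfp. All 4 were therefore below the median, with C1s the poorest in CpG. On either strand, the C/EBP motif TTNNGCAA occurred in C3 at position −45 (as ttgcgaaa on the printed strand, across a CpG), in C1ra at position 17 and in C1s at position −242, counted from 1 at the start site, and in 10.8% of all promoters. The interferon-gamma activated site TTCNNNGAA occurred in C1ra at position 33 and in 8.3% of promoters, and no 2 matches overlapped. The NF-kB consensus, found in 8.46% of promoters, was not in these 4 windows. Matches are letters only, and DNA methylation was not measured in these files.

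Levels were compared between genes per length, as CPM per kb of the counted feature. In GFP cells the order was C3 at 20.7 ± 0.559, Cfb at 14.3 ± 0.698, C4b at 13.4 ± 0.62, C1s at 5.62 ± 0.269, C1ra at 4.41 ± 0.094, Masp1 at 3.25 ± 0.060 and Cfp at 2.03 ± 0.166 CPM per kb (SD, n = 3), with C2 and Serping1 below 0.05. The library ranges of Cfb and C4b overlapped there. The central component C3, C4b and Cfb thus stood above the C1 proteases, and these above Masp1 and properdin, in all 4 groups except that Cfb and C1s (6.73 ± 0.576 and 6.68 ± 0.385 CPM per kb) were level in shDnmt3a cells. The first place changed hands. In Dnmt3a cells C4b (13.8 ± 0.977 CPM per kb) and C3 (12.5 ± 0.929) led with overlapping libraries, in shDnmt3a cells C3 (13.7 ± 0.105) stood above C4b (10.3 ± 0.276), and in shScr cells the order was C4b (16.1 ± 0.474), Cfb (13.8 ± 0.193) and C3 (10.4 ± 0.476).

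**Figure D1:**
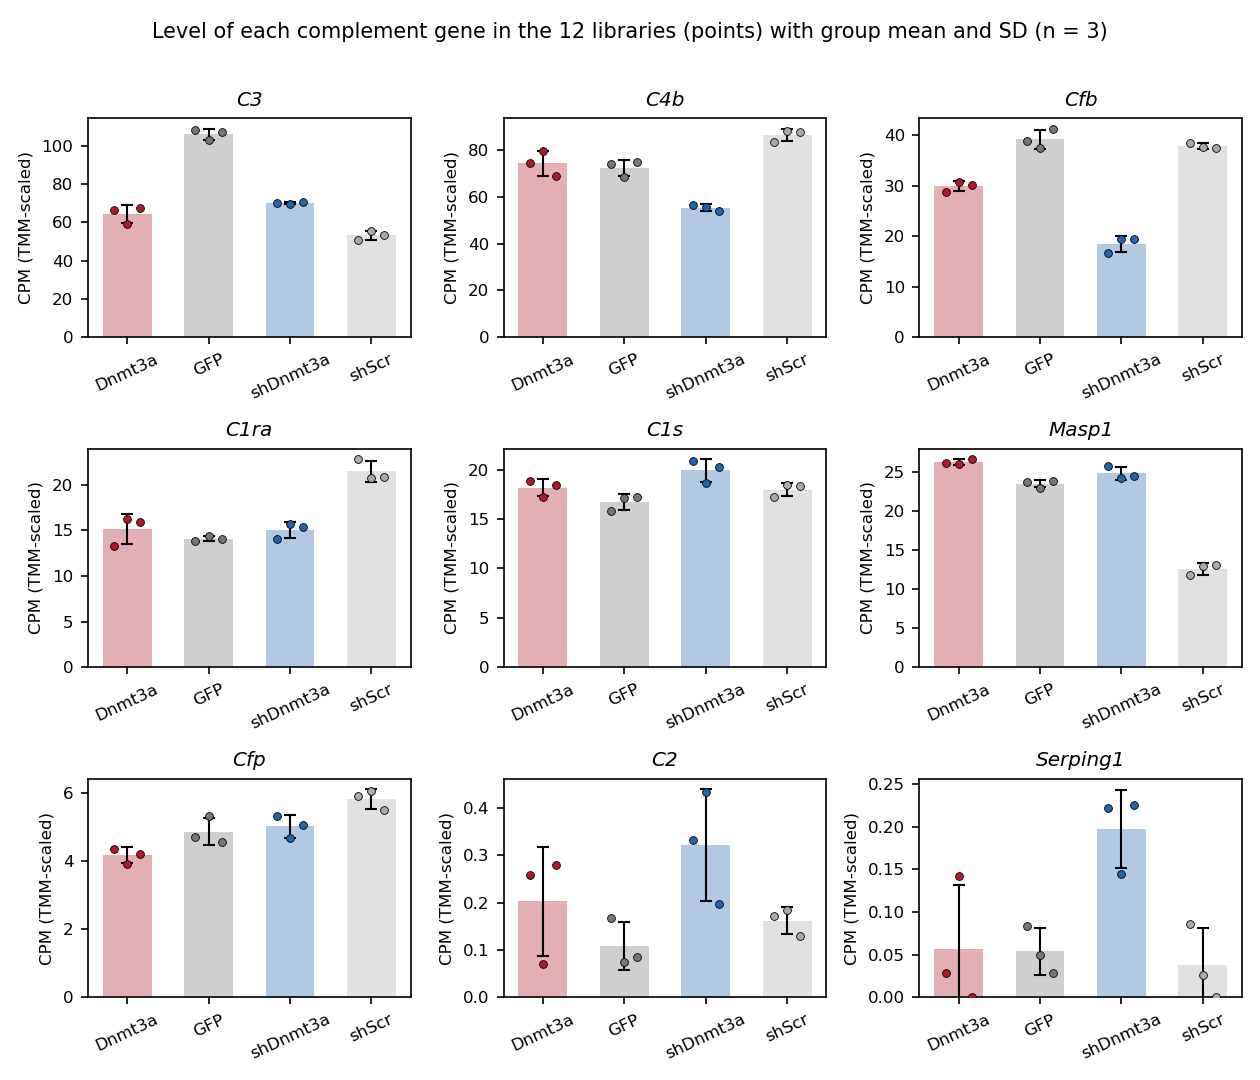
CPM (vertical axis, TMM-scaled, each panel with its own scale from 0) of the 9 genes in the Dnmt3a, GFP, shDnmt3a and shScr groups; points are libraries, bars the group mean and error bars the SD of 3 libraries, cut off at 0 for Serping1. C3 was highest in GFP cells (106 ± 2.87 CPM), Cfb lowest in shDnmt3a cells (18.5 ± 1.58 CPM) and Masp1 lowest in shScr cells (12.6 ± 0.747 CPM), whereas C1s moved little and C2 and Serping1 stayed under 0.5 CPM.

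Overexpression of Dnmt3a was set against GFP in the 6 libraries of that comparison, and knock-down against shScr in the other 6. Each was tested with the quasi-likelihood method of edgeR, with p-values adjusted after Benjamini and Hochberg over every feature that passed a filter on low counts. Genes with an adjusted p under 0.05 count as called. Of the 9 genes, 7 passed the filter, all but C2 and Serping1. On overexpression 3 of these 7 were called, Masp1 higher and C3 and Cfb lower, whereas 27.2% of all 14168 features tested were called (14.3% higher and 12.9% lower). On knock-down 5 of 7 were called, C3 and Masp1 higher and C4b, C1ra and Cfb lower, whereas 45.8% of 14115 features were called (23.3% higher and 22.5% lower). The difference between the effects (knock-down minus overexpression, from 1 fit of the 12 libraries) was called for 5 of 7, C3 and Masp1 higher and C4b, C1ra and Cfb lower, whereas 40.3% of 14491 features were called (19.9% higher and 20.4% lower). With so many features called and only 7 genes tested, these shares say little of the genes as a group. Their median log2 fold change was 0.03 on overexpression and −0.21 on knock-down, where that of all features tested was −0.01 and −0.00.

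C3, the component whose cleavage every pathway shares, moved in opposite directions under the 2 manipulations. It stood at 66.4, 58.9 and 67.8 CPM in Dnmt3a cells, against 108, 103 and 107 CPM in GFP cells. The Dnmt3a libraries were all below the GFP libraries, by a log2 fold change of −0.72 (SE 0.045, Benjamini-Hochberg adjusted p = 1.177e-14 in edgeR's quasi-likelihood test), so that GFP cells held 1.65 times the level. In shDnmt3a cells C3 stood at 70.4, 69.7 and 70.8 CPM, against 50.7, 55.6 and 53.2 CPM in shScr cells. These groups did not overlap either, and the log2 fold change was 0.41 (SE 0.044, adjusted p = 2.86e-07, same edgeR test). The 2 effects differed by 1.12 on the log2 scale (knock-down minus overexpression, 95% interval 0.99 to 1.26, adjusted p = 3.831e-14, same edgeR test in the fit of all libraries). The controls themselves lay apart, at 53.2 ± 2.44 CPM in shScr cells and 106 ± 2.87 CPM in GFP cells (SD, n = 3 each), a ratio of 0.501. The levels of both Dnmt3a-altered groups (64.4 ± 4.77 CPM in Dnmt3a cells and 70.3 ± 0.538 CPM in shDnmt3a cells) lay between those of the controls.

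C4b encodes mouse C4, which the C1s protease cleaves and which forms, with C2, the C3 convertase of the classical and lectin pathways. It stood at 74.5, 79.5 and 68.9 CPM in Dnmt3a cells, against 73.9, 68.6 and 74.7 CPM in GFP cells, with the groups overlapping. The log2 fold change was 0.03 with a 95% interval of −0.06 to 0.13 (Benjamini-Hochberg adjusted p = 0.6588 in edgeR's quasi-likelihood test), and it was just below 0 without the second Dnmt3a or the second GFP library. In shDnmt3a cells C4b stood at 56.7, 55.6 and 53.7 CPM, against 83.7, 88.4 and 87.7 CPM in shScr cells. Every shDnmt3a library was below every shScr library, with a log2 fold change of −0.64 (SE 0.042, adjusted p = 2.278e-10, same edgeR test), and the difference between the effects was −0.68 (95% interval −0.82 to −0.54, adjusted p = 1.727e-09, same edgeR test in the fit of all libraries). C4a, the paralog known in mouse as the sex-limited protein, had a log2 fold change of −0.65 (SE 0.107, adjusted p = 5.384e-05, same edgeR test) on knock-down, at 4.14 ± 0.471 CPM in shDnmt3a cells and 6.51 ± 0.132 CPM in shScr cells. Its reads may be shared with C4b, so the 2 values are not independent.

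Cfb, which encodes factor B, the protease of the alternative C3 convertase, was lower under both manipulations. It stood at 28.8, 30.6 and 30.2 CPM in Dnmt3a cells, against 38.8, 37.5 and 41.3 CPM in GFP cells. No Dnmt3a library reached a GFP library, and the log2 fold change was −0.39 (SE 0.054, Benjamini-Hochberg adjusted p = 5.758e-07 in edgeR's quasi-likelihood test). In shDnmt3a cells it stood at 16.7, 19.5 and 19.3 CPM, against 38.5, 37.6 and 37.5 CPM in shScr cells. That log2 fold change of −1.03 (SE 0.062, adjusted p = 7.814e-11, same edgeR test) made Cfb the most lowered of the 7 genes, with 2.04 times the level in shScr cells. The fall was larger on knock-down than on overexpression, by −0.64 (95% interval −0.81 to −0.47, adjusted p = 2.101e-07, same edgeR test in the fit of all libraries). Here the controls overlapped, at 37.9 ± 0.530 CPM in shScr cells and 39.2 ± 1.92 CPM in GFP cells (SD, n = 3 each), with a 95% interval of −0.16 to 0.06 for their log2 fold change.

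The proteases of the C1 complex, of which C1r activates C1s and C1s cleaves C4 and C2, did not move together. C1ra stood at 13.2, 16.2 and 16.0 CPM in Dnmt3a cells, against 13.8, 14.4 and 14.02 CPM in GFP cells, and the groups overlapped (log2 fold change 0.10, 95% interval −0.05 to 0.26). On knock-down C1ra stood at 14.04, 15.7 and 15.4 CPM in shDnmt3a cells, against 22.8, 20.7 and 20.9 CPM in shScr cells. The shDnmt3a libraries lay wholly below, with a log2 fold change of −0.51 (SE 0.068, Benjamini-Hochberg adjusted p = 5.083e-06 in edgeR's quasi-likelihood test), and the effects differed by −0.62 (95% interval −0.83 to −0.40, adjusted p = 1.91e-05, same edgeR test in the fit of all libraries). C1s stood at 18.9, 17.2 and 18.4 CPM in Dnmt3a cells, against 15.8, 17.2 and 17.3 CPM in GFP cells, which overlapped (log2 fold change 0.12, 95% interval −0.02 to 0.26). In shDnmt3a cells it stood at 20.9, 18.6 and 20.3 CPM, against 17.2, 18.4 and 18.4 CPM in shScr cells. The shDnmt3a libraries were just above the shScr libraries, and the log2 fold change of 0.15 missed the threshold (95% interval 0.02 to 0.29, adjusted p = 0.06404, same edgeR test), which it passed without the second shDnmt3a library (0.20, adjusted p = 0.03913, same edgeR test). Between the 2 manipulations the effects on C1s differed by 0.03 (95% interval −0.16 to 0.22).

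Masp1 encodes the lectin-pathway protease MASP-1 and, by splicing, MASP-3, which activates pro-factor D, and the counts do not separate these isoforms. In Dnmt3a cells it stood at 26.2, 26.1 and 26.7 CPM, against 23.7, 23.0 and 23.8 CPM in GFP cells. The groups were narrow and apart, but the log2 fold change was only 0.16 (SE 0.057, Benjamini-Hochberg adjusted p = 0.03469 in edgeR's quasi-likelihood test). That call was lost when any of the 6 libraries was left out (log2 fold change 0.15 to 0.17, adjusted p 0.0579 to 0.104) and with DESeq2 (adjusted p = 0.05401), which left 2 called genes on overexpression. On knock-down Masp1 stood at 25.7, 24.3 and 24.5 CPM in shDnmt3a cells, against 11.8, 12.9 and 13.2 CPM in shScr cells. All shDnmt3a libraries were higher, with a log2 fold change of 0.98 (SE 0.066, adjusted p = 3.664e-10, same edgeR test), 1.98 times the level, and the effects of knock-down and overexpression differed by 0.82 (95% interval 0.65 to 0.99, adjusted p = 3.48e-09, same edgeR test in the fit of all libraries).

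Cfp encodes properdin, which stabilises the alternative C3 convertase. It stood at 4.37, 3.91 and 4.22 CPM in Dnmt3a cells, against 4.70, 5.31 and 4.57 CPM in GFP cells, and at 5.33, 4.67 and 5.07 CPM in shDnmt3a cells, against 5.91, 6.06 and 5.49 CPM in shScr cells. In both pairs the libraries did not overlap and the altered cells were lower, but neither difference passed the test. The log2 fold change was −0.22 on overexpression (95% interval −0.46 to 0.02, Benjamini-Hochberg adjusted p = 0.167 in edgeR's quasi-likelihood test) and −0.21 on knock-down (95% interval −0.43 to 0.00, adjusted p = 0.1015, same edgeR test), and the effects differed by 0.00 (95% interval −0.29 to 0.29).

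C2, the protease of the classical and lectin C3 convertase, and Serping1, the C1 inhibitor that blocks C1r, C1s and MASP proteases, were close to absent. C2 had 9, 2 and 11 counts in Dnmt3a cells against 8, 3 and 3 in GFP cells, and 12, 18 and 7 counts in shDnmt3a cells against 6, 7 and 4 in shScr cells. Serping1 had 1, 4 and 0 counts in Dnmt3a cells against 4, 2 and 1 in GFP cells, and 8, 6 and 8 counts in shDnmt3a cells against 3, 1 and 0 in shScr cells. Summed over libraries both were highest in shDnmt3a cells, and no library reached 0.5 CPM. Scaled for depth, the summed counts of Serping1 gave a ratio of 5.04 on knock-down (22 against 4 counts, exact 95% interval 1.71 to 20.1) and of 0.863 on overexpression (5 against 7 counts, 0.216 to 3.16). For C2 the ratio was 1.99 on knock-down (37 against 17 counts, 1.10 to 3.78) and 1.90 on overexpression (22 against 14 counts, 0.929 to 4.01), and these intervals cover counting error only. Without the filter on low counts, Serping1 was called on knock-down (log2 fold change 2.24, SE 0.822, Benjamini-Hochberg adjusted p = 0.02132 in edgeR's quasi-likelihood test), while C2 was not (adjusted p = 0.1269, same edgeR test).

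**Figure D2:**
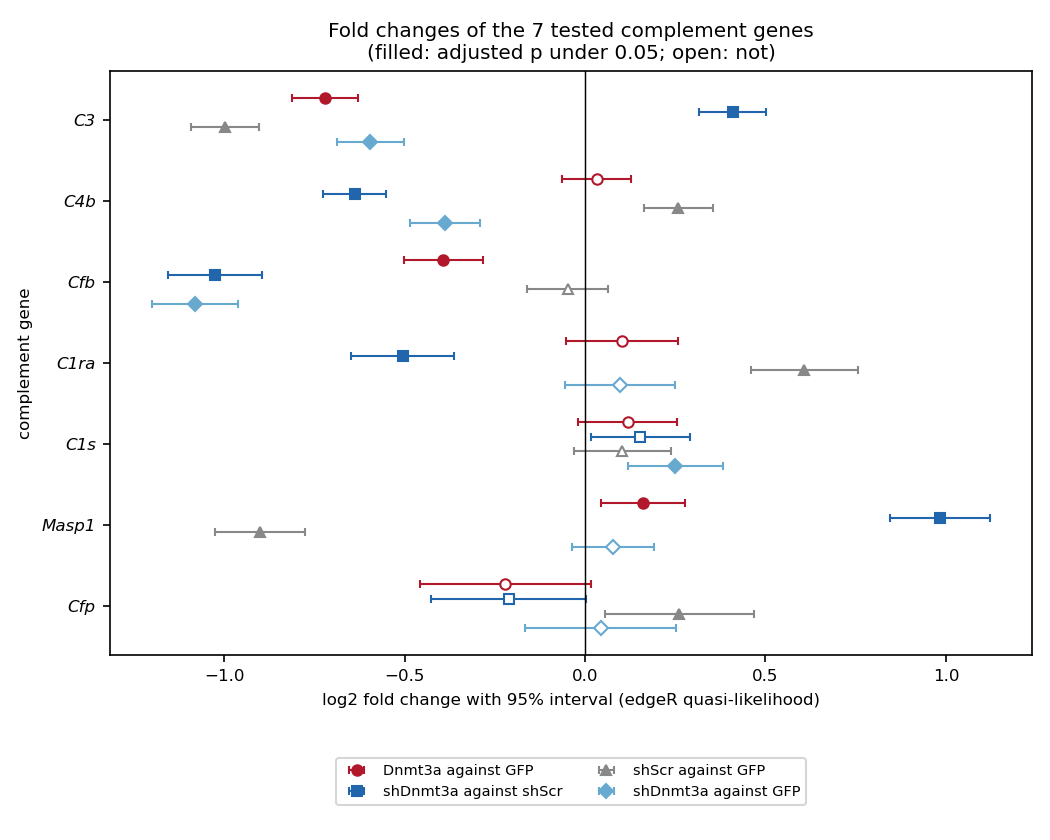
Log2 fold changes (horizontal axis) with 95% intervals of the 7 complement genes that passed the filter, for Dnmt3a against GFP, shDnmt3a against shScr, shScr against GFP and shDnmt3a against GFP; filled symbols had an adjusted p under 0.05 in edgeR's quasi-likelihood test. Cfb lay below 0 wherever Dnmt3a was altered, C3 changed side between overexpression (−0.72) and knock-down (0.41), and for Masp1 and C1ra the interval of shDnmt3a against GFP included 0.

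The controls were set beside each other in 1 fit of all 12 libraries, since several knock-down effects depend on where shScr stood. Against GFP cells, 5 of 7 genes were called in shScr cells (C4b, C1ra and Cfp higher, C3 and Masp1 lower), where 46.5% of 14491 features were called (23.7% higher and 22.8% lower), and construct, virus and any batch of the 2 arms cannot be told apart. The comparison of shDnmt3a with GFP cells was added after the data had been seen and shares its libraries with the others. It called 4 of 7 genes (C1s higher, C3, C4b and Cfb lower), where 46.5% of features were called (23.6% higher and 22.8% lower). For Masp1 the log2 fold change was −0.90 in shScr cells (SE 0.061, Benjamini-Hochberg adjusted p = 4.459e-13 in edgeR's quasi-likelihood test) and 0.08 in shDnmt3a cells (95% interval −0.04 to 0.19), both against GFP cells. For C1ra the values were 0.61 in shScr cells (SE 0.072, adjusted p = 4.571e-08, same edgeR test) and 0.10 in shDnmt3a cells (95% interval −0.06 to 0.25). In these genes the shScr libraries were the ones that stood apart from the other 9. Cfb showed the reverse, at −0.05 in shScr cells and −1.08 in shDnmt3a cells (SE 0.058, adjusted p = 3.689e-15, same edgeR test), with the shDnmt3a libraries the lowest of the 12. C3 was lower than in GFP cells in both, at −0.998 in shScr cells and −0.595 in shDnmt3a cells, and C4b was on either side, at 0.26 in shScr cells and −0.39 in shDnmt3a cells. C1s was 0.10 in shScr cells, which did not pass the test, and 0.25 in shDnmt3a cells (SE 0.064, adjusted p = 0.001934, same edgeR test). Cfp was 0.26 in shScr cells (adjusted p = 0.03469, same edgeR test), a call that was lost without GFP library 1 or 3 or without shScr library 1 or 2 (adjusted p 0.0756 to 0.117), and 0.04 in shDnmt3a cells.

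Among the genes next to these loci, the annotated neighbours tested around C4b, Cfb and C2 had smaller fold changes on knock-down than C4b and Cfb. C4a, whose value on knock-down is given above and was like that of C4b, is not among these neighbours. On knock-down Tnxb, which encodes the matrix protein tenascin-X and lies beside C4b, had a log2 fold change of −0.28, and Stk19, Dom3z, Atf6b and Skiv2l had −0.29, −0.26, −0.14 and −0.16. These 5 of the 10 neighbours tested were called lower, where 22.5% of all features were, and Ehmt2, a histone methyltransferase gene, was called higher (0.09). The other 4 did not pass the test: Cyp21a1 at −0.45 with an SE of 0.281, Fkbpl at −0.02, Rdbp at 0.04 and Zbtb12 at 0.02. Of the 5 called lower, only Stk19 was also called lower in shDnmt3a against GFP cells (−0.19). Tnxb was called higher there (0.18), and Dom3z, Atf6b and Skiv2l were not called (−0.12, 0.02 and −0.06). In Tnxb the shScr libraries stood apart, at 179 to 205 CPM, against 130 to 162 CPM in the other 9. On overexpression Fkbpl alone was called among the 10 neighbours tested there (0.36), where 27.2% of all features were called, and Cfb was at −0.39. With only 10 genes, that count says little of the region. Around C1ra and C1s, the C1r-related genes C1rl and C1rb parted on knock-down: C1rl was higher at 0.46 (50.2 ± 1.88 CPM in shDnmt3a cells and 36.7 ± 1.13 CPM in shScr cells), and C1rb lower at −0.35 (13.2 ± 0.471 CPM in shDnmt3a cells and 16.9 ± 0.516 CPM in shScr cells), beside −0.51 for C1ra. Beside Masp1, the sialyltransferase gene St6gal1 had a log2 fold change of 0.97 and the interferon-inducible Rtp4 of −1.30 on knock-down, with 0.98 for Masp1 itself. In St6gal1 the shDnmt3a libraries stood apart, at 30.8, 30.9 and 29.5 CPM, against 15.3 to 18.8 CPM in the other 9, whereas in Masp1 the shScr libraries did. They also did in Rtp4, at 96.9, 95.2 and 91.9 CPM, against 21.0 to 39.7 CPM in the other 9. Next to C3, Tnfsf9, a ligand of the TNF family, had 1.97 on knock-down, and Gpr108 −0.09. The shScr libraries again stood apart in Tnfsf9, at 0.430, 0.553 and 0.520 CPM, against 1.09 to 2.37 CPM in the other 9, and shDnmt3a against GFP cells gave 0.42, which was not called.

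**Figure D3:**
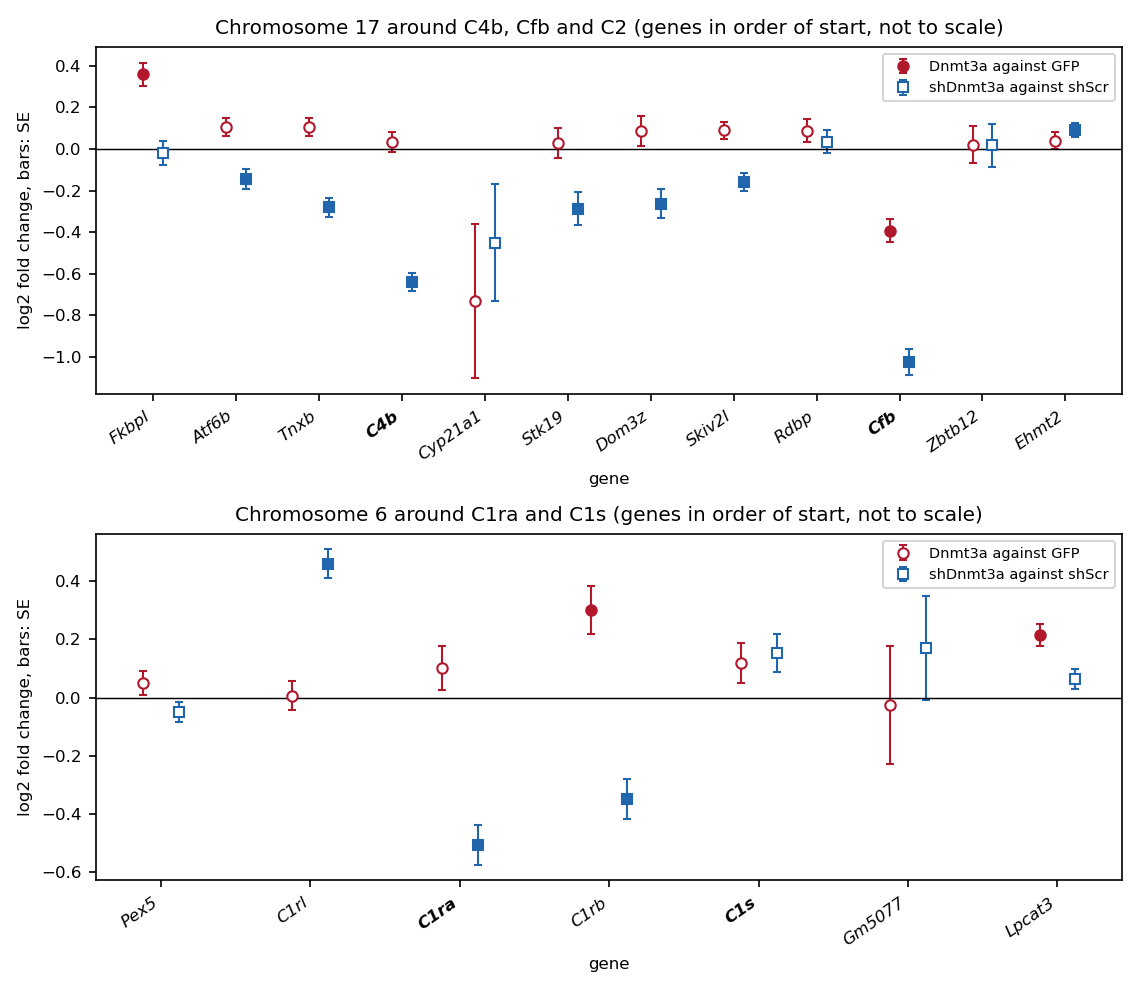
Log2 fold changes (vertical axis, error bars the standard error) of tested genes around C4b, Cfb and C2 (upper panel) and around C1ra and C1s (lower panel), in order of their start; circles are Dnmt3a against GFP, squares shDnmt3a against shScr, filled symbols had an adjusted p under 0.05 in edgeR's quasi-likelihood test, and complement genes of the 9 are in bold. C4b (−0.64) and Cfb (−1.03) stood below the neighbours shown on knock-down, which do not include C4a, and C1ra (−0.51) and C1rb (−0.35) below C1rl (0.46).

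The rest of the pathway was taken from a list of 46 names, of which 42 were in the table. On overexpression 22 passed the filter, and 5 were called higher and 1 lower, with a median log2 fold change of 0.03. That is a share like the 27.2% called among all features. Cfd, the protease that cleaves factor B once it is bound to C3b, was by far the most abundant, at 4497, 4930 and 4305 CPM in Dnmt3a cells against 3604, 3824 and 3802 CPM in GFP cells. Its groups did not overlap, with a log2 fold change of 0.29 (SE 0.038, Benjamini-Hochberg adjusted p = 2.545e-07 in edgeR's quasi-likelihood test). The others called higher were C1rb (0.30), Clu (0.30), which encodes the chaperone and terminal-pathway inhibitor clusterin, Cd59a (0.24), which encodes a membrane inhibitor of the lytic complex, and the scavenger receptor Colec12 (0.16). Masp2 was called lower (−0.11), but 54.9% of its exon bases lie opposite Tardbp, so its reads are uncertain.

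On knock-down 23 of these genes passed the filter, and 3 were called higher and 6 lower, with a median of 0.06, where 45.8% of all features were called. Clu was higher again (0.57), at 27.4, 25.2 and 26.7 CPM in shDnmt3a cells, against 17.7, 17.5 and 18.3 CPM in shScr cells, and C1rl was higher too (0.46). The lower genes were C4a, C1rb, Cfd, Colec12 (−0.15), C1qbp (−0.32), a mitochondrial protein named for its binding of C1q, and Itgb2 (−0.77), the beta chain of complement receptor 3, at 4.99 ± 0.079 CPM in shDnmt3a cells and 8.53 ± 0.263 CPM in shScr cells. Cfd stood at 2982, 3030 and 3061 CPM in shDnmt3a cells, against 3616, 3429 and 3901 CPM in shScr cells. It was lower in every shDnmt3a library (log2 fold change −0.26, SE 0.037, Benjamini-Hochberg adjusted p = 7.845e-06 in edgeR's quasi-likelihood test). Within the alternative pathway, the log2 fold changes of factor B and its activating protease were thus −1.03 and −0.26 on knock-down, and −0.39 and 0.29 on overexpression.

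**Figure D4:**
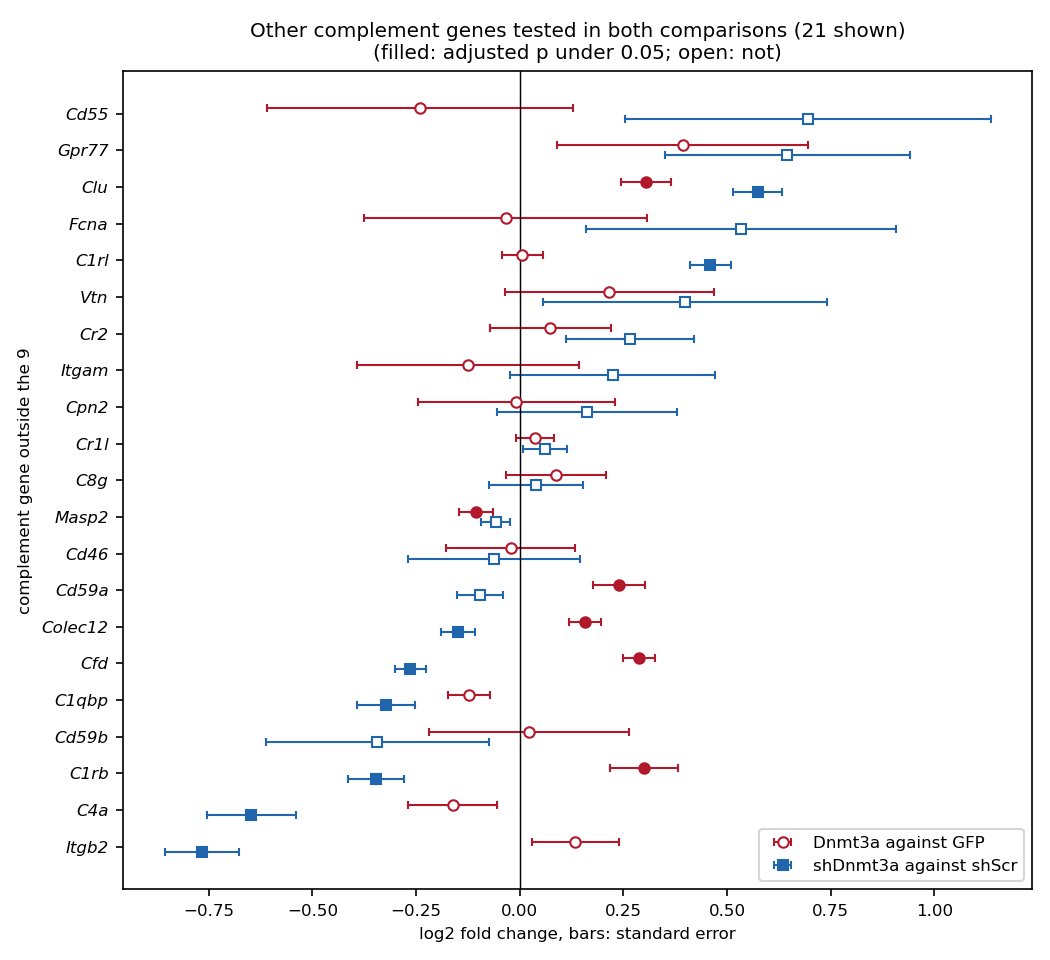
Log2 fold changes (horizontal axis, error bars the standard error) of complement genes outside the 9 that were tested in both comparisons, ordered by their value on knock-down; circles are Dnmt3a against GFP and squares shDnmt3a against shScr, and filled symbols had an adjusted p under 0.05 in edgeR's quasi-likelihood test. Clu was called higher in both, Cfd, C1rb and Colec12 higher on overexpression (0.29, 0.30 and 0.16) and lower on knock-down (−0.26, −0.35 and −0.15). For C1rb, shDnmt3a against GFP cells, not shown here, gave 0.41 and was called higher.

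Several links of the chain were not seen in these cultures. C1qa, C1qb and C1qc, the chains of the recognition protein of the classical pathway, had no count in any of the 12 libraries, and neither did the lectins Mbl1 and Mbl2, the ficolin Fcnb or C8b. Of the terminal components, Hc (which encodes C5) had 42 counts, C6 54, C8a 85 and C9 2 over all 12 libraries together. C8g was the exception, at 4.58 ± 0.320 CPM in GFP cells. The anaphylatoxin receptors C3ar1 and C5ar1 had 101 and 7 counts. These cells therefore held RNA for C3, C4, factor B, factor D and the C1r and C1s proteases, while RNA of C1q and of most of the lytic components was at or near 0.

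Complement genes are known to respond to interferon, NF-kB, C/EBP and STAT3 signals, and RNA of such factors was followed beside them as a further list. Acute phase and inflammatory genes and other serpins were followed as well. For each of these lists the share called among all features, 27.2% on overexpression and 45.8% on knock-down, is the background. Of 13 tested, 2 were called higher and 7 lower on overexpression, with a median of −0.14, and 4 higher and 7 lower on knock-down, with a median of −0.16. On overexpression Relb, an NF-kB subunit, had a log2 fold change of −0.85 and Stat2 of −0.32. On knock-down Irf7 had −1.20, Stat2 −0.90 and Irf9 −0.41. Irf7 showed an order like that of C1ra, in which shScr stood apart: it was at 39.6, 38.1 and 38.8 CPM in shDnmt3a cells and 87.5, 89.6 and 92.1 CPM in shScr cells, with 30.9 to 33.5 CPM in Dnmt3a cells and 37.8 to 39.5 CPM in GFP cells. Among 15 acute phase and inflammatory genes, 3 were called higher and 7 lower on overexpression (median −0.20), with Ptx3 at −1.21 and Ccl2 at −1.08. On knock-down 14 were tested, and 6 were called higher and 5 lower (median 0.24), with Serpina3n at 0.66, Ccl7 at −0.89 and Socs3 at 0.85. Of 6 other serpins tested, the family of Serping1, 1 was called higher and 1 lower on overexpression (median 0.15, with Serpinf1 at 0.30). On knock-down 2 of the 6 were called higher and 1 lower (median 0.21, with Serpinh1 at 0.41 and Serpinf1 at −0.51). Whether any of these shifts bears on the complement genes was not tested.

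The 7 tested genes did not share 1 pattern over the 12 libraries. Pearson's r of log2 CPM over the 12 libraries, which fall into the 4 groups and are given as a description, was 0.86 between C4b and Cfb, −0.92 between C1ra and Masp1, −0.81 between C1s and Cfb and −0.08 between C1ra and C1s. Among 9846 other genes with a mean of at least 5 CPM, the genes closest to C3 were Loxl4 (r = 0.99), Hmga2 (0.98) and Tpx2 (0.97). Those closest to C4b were Zfp251 (0.98), Mmp28 (0.98) and Ifi35 (0.97), and those closest to Cfb were Nars, Noc3l and Nop2 (each 0.98). Masp1 was closest to AK077157, A130040M12Rik and Gpr120 (each 0.99), and C1ra to 3110062M04Rik, Pigy and Tmco3 (each 0.96). C1s and Cfp had no neighbour as near, with highest values of 0.90 (Pigl) and 0.95 (Trim37).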

How the data were processed

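RNA-seq counts of 12 libraries of 3T3-L1 adipocytes, 3 each of Dnmt3a, GFP, shDnmt3a and shScr, were analysed; groups and columns were taken from the labels. As deposited, the values are whole-number counts per transcript feature that the authors did not normalize. According to the study's methods and the submitters' processing notes, ribosomal RNA was depleted, libraries were made with an Illumina TruSeq kit, and reads were aligned to mm9 with TopHat2 (2.0.14), handled with Picard (2.2.4) and SAMtools (0.1.19) and assigned with featureCounts (1.4.6) on an annotation altered to limit overlaps.

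Differences were tested with edgeR (4.0.16, R 4.3.3) by the quasi-likelihood method on TMM-scaled counts, separately for the 6 libraries of each comparison, after edgeR's filterByExpr (minimum count 10). p-values were adjusted by Benjamini-Hochberg over all features tested. Contrasts between arms used 1 fit of the 12 libraries. Standard errors were set to match the F statistic. TMM scaling of CPM used the 12 libraries, and CPM per kb the deposited feature length. Intervals of summed counts are exact 95% intervals and cover counting error only. Replicates varied by 3.98% (overexpression) and 4.03% (knock-down), as edgeR's common biological coefficient of variation. The test was checked on simulated counts with known changes.

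The 9 genes and all gene lists were chosen with earlier results of these data known. Named outside the 9 were called genes of the complement list, called genes with the 4 smallest p of the other lists, annotated neighbours up to the third on each side and the 3 closest patterns per gene; the Irf7 and St6gal1 levels, the sums over C2 and Serping1 and the unfiltered values were singled out after their values were seen. Alternatives were RLE size factors, DESeq2 (1.42.0), no filter, at least 1 CPM in 3 libraries, counts summed by symbol, a replicate block, a joint fit of the 12 libraries, an adjusted p under 0.01 and leaving out each library. Some genes counted in the lists are not reported here by name.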

Additional observations from a re-analysis of the deposited data

How the results depend on the processing

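Of the values of the 7 genes that passed the filter, at an adjusted p under 0.05, 513 kept their direction and their side of the threshold, 12 lost a call, 1 gained a call and 13 changed sign; those that changed sign were near 0 and not called. The overexpression call of Masp1 was lost with DESeq2, at an adjusted p under 0.01 and without each library in turn. At an adjusted p under 0.01, 2562 genes were called on overexpression, against 3850 at 0.05. Leaving out a library, 2 of the 7 genes were called on overexpression each time (3063 to 3830 genes in all) and 5 to 6 on knock-down (5576 to 6289 in all). C2 was called on knock-down without shDnmt3a library 3, where it passed the filter (C1s and Serping1 are given above).

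Leaving out a library, the log2 fold change of C4b on overexpression ran from −0.0144 to 0.0865 and that of Cfp in shDnmt3a against GFP cells from −0.000305 to 0.109. The difference between the effects ran from −0.0111 to 0.0740 for C1s and from −0.0701 to 0.0533 for Cfp, and for Cfp it was −0.00124 with the replicate block and −0.00129 with counts summed by symbol. Without the filter, Cfp was no longer called in shScr against GFP cells (0.25, adjusted p = 0.06027, edgeR quasi-likelihood test), and C2 was called in shDnmt3a against GFP cells (adjusted p = 0.01538, same edgeR test), as it was in 9 of the 12 fits with a library left out.

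The replicate numbers did not pair the samples: deviations of same-numbered libraries correlated at −0.052 to 0.0068. With the replicate block no call among the 9 genes changed in any comparison. At these depths C2 and Serping1 rest on at most 18 counts per library, so differences in them are bounded only widely.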
